A study of Homo sapiens with 24 samples.

Results

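The HOX cluster genes were taken as every gene name made of HOX, a cluster letter (A, B, C or D) and a number, with nothing after it, so antisense and other suffixed names were left out. This gave 39 genes of the 58138 gene names counted. They were measured in 24 samples of human embryonic kidney derived cell lines, in 12 groups of 2, from a study of how RPRD proteins (regulators that bind the tail of RNA polymerase II) affect steady-state RNA. The 16 HEK293T samples were all transfected for 48 h, either with a control siRNA (short interfering RNA) or with siRNAs against RPRD1A (the group RPRD1A_KD), RPRD1B (RPRD1B_KD), RPRD2 (RPRD2_KD) or combinations of them (RPRD1A_RPRD1A_KD, RPRD1A_RPRD2_KD, RPRD1B_RPRD2_KD and RPRD1A_RPRD1B_RPRD2_KD). The label RPRD1A_RPRD1A_KD names RPRD1A in both places and is kept as written. The 8 Flp-In T-REx 293 samples, from a 293 line built to accept a gene under tetracycline control, were not transfected with siRNA: the parent line was untreated (FLP) or given tetracycline for 48 h (FLP_TET), and the line labelled RPRD1B_FL was untreated (RPRD1B_FL) or given tetracycline (RPRD1B_FL_TET). The labels do not explain FL, do not say whether that line is a clone, and do not say whether the 2 samples of a group came from separate cultures, so the p-values measure the spread between these samples, which may be technical.

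HOX genes encode transcription factors with a homeodomain, the part that binds DNA, and they give cells along the body axis their regional identity. In each cluster the genes lie in the order in which they are used along the body: low numbers (anterior genes) toward the hindbrain, high numbers (posterior genes) toward the trunk end, limbs and urogenital tract. Cultured cell lines tend to keep a HOX pattern of their own, and in the embryonic kidney the paralogs HOXA11, HOXC11 and HOXD11 are needed for the metanephros to form. On GRCh38 with GENCODE 29, all 39 names matched a protein-coding gene. The HOXA cluster (11 genes, on chromosome 7) and the HOXB cluster (10 genes, chr17:48528526-48729178) lie on the minus strand, and the HOXC cluster (9 genes, chr12:53938765-54056030) and the HOXD cluster (9 genes, chr2:176092891-176190907) on the plus strand.

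Promoter sequences are shown for 4 genes on which the results turn: HOXA6, which was near the floor of detection in the Flp-In lines; HOXA10, which was higher there and highest in the RPRD1B_FL line; and the close neighbours HOXD11 and HOXD13, which differed between the cell lines in opposite directions. They are the 250 bases before a RefSeq transcript start on GRCh38.p14, given 5′ to 3′ on the strand of the gene, and none of these windows holds an annotated exon. HOXA10 has another window in the table, which is not shown because it does hold annotated exon bases. Capitals mark matches, on either strand, to TATAAA (the TATA box), CCAAT (bound by NF-Y), TTTATNG (a CDX type sequence) or TGATNNAT (a type bound by HOX proteins with PBX partners). TATAAA and TTTATNG matches can overlap.
HOXA6, chr7:27147775-27148024, minus strand: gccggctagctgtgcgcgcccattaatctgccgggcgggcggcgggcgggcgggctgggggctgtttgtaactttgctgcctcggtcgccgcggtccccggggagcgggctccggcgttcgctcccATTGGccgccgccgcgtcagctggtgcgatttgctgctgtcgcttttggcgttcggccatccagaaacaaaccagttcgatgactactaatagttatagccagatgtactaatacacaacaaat
HOXA10, chr7:27174321-27174570, minus strand: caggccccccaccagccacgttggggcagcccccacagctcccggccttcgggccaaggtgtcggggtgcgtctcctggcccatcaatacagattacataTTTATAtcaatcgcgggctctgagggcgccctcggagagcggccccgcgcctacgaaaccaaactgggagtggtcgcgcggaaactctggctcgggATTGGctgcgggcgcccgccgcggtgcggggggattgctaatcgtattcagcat
HOXD11, chr2:176107030-176107279, plus strand: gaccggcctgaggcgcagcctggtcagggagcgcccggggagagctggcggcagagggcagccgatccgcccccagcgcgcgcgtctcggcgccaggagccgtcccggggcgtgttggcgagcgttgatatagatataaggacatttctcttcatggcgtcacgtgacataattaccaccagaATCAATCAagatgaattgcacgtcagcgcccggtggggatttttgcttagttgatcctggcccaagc
HOXD13, chr2:176092471-176092720, plus strand: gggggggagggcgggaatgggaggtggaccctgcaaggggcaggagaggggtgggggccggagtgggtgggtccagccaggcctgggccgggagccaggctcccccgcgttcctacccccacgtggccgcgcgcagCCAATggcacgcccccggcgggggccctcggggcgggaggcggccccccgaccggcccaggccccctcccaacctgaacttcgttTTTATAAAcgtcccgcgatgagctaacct

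The HOXA6, HOXA10 and HOXD13 windows each hold a CCAAT match, the HOXA10 and HOXD13 windows hold TATAAA, and the HOXD11 window holds TGATNNAT. The RefSeq table held 27 windows for 20 of the 39 genes. HOXC4 and HOXC5 have the same window, with CCAAT and TTTATNG matches, which is counted for both genes. HOXA3 has several windows, so the windows are not independent of each other. CCAAT was found in 18 of the 27 HOX windows and in 32% of all 35116 windows of the same length. TATAAA was in 5 HOX windows against 10.7% of all, TTTATNG in 7 against 8.93%, and TGATNNAT in 3 against 6.47%. The median number of CG pairs was 19 in HOX windows and 11 in all windows. These matches describe the letters only.

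Each library held between 1817246 and 3531106 reads counted in genes. Levels are given as CPM, counts scaled to a common library size with TMM factors (normalisation factors of edgeR). The libraries read the 3′ ends of polyadenylated RNA, so a CPM is not divided by transcript length and compares genes as transcript ends counted. A level of 3 counts in a library, used as the floor of detection, corresponded to 0.860 to 1.67 CPM and covers counting error only, since the labels name no molecular identifiers. In bulk RNA, fewer cells expressing a gene and less RNA per cell cannot be told apart. The siRNA labels were checked on their targets. RPRD1A was at 152 and 161 CPM in the control and at 14.3 to 26.8 CPM in the 8 libraries whose labels name it. In the 6 knockdown libraries whose labels do not name it, RPRD1A was at 67.8 to 99.9 CPM, also below both control libraries. RPRD2 was at 96.1 and 99.4 CPM in the control and at 30.2 to 67.9 CPM in the 8 libraries whose labels name it, against 86.8 to 101 CPM in the 6 whose labels do not. RPRD1B was at 27.5 and 27.8 CPM in the control, at 3.87 to 14.3 CPM in the 6 libraries whose labels name it, and at 7.88 and 13.7 CPM in the libraries labelled RPRD1A_RPRD1A_KD, which goes against that label. Among Flp-In libraries, RPRD1B reached 44.8 and 45.3 CPM in RPRD1B_FL, 89.1 and 67.2 CPM in RPRD1B_FL_TET, and 30.4 to 36.1 CPM in the 4 parent libraries.

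The 2 kinds of 293 cell also differed in markers that are not HOX genes. The summed level of 8 markers of 293 cells (NEFL, NEFM, INA, PAX2, CDH2, VIM, KRT8 and KRT18) was 169 to 245 CPM in HEK293T libraries, 903 to 955 CPM in the parent line and 729 to 869 CPM in the RPRD1B_FL line. NEFL, a neurofilament gene, had a median of 2.73 CPM in HEK293T and 139 CPM in the parent line. Not all 8 markers went this way. At an edgeR adjusted p under 0.05, 6 were higher and 1 lower in FLP than in the control, where 33.4% of all genes passed. RPRD1B_FL against the control also gave 6 higher and 1 lower, where 31.1% passed. The leukocyte list as a whole is not reported here. Of its members, PTPRC was at most 0.380 CPM in any library and CD3E at 0 in all 24, and LCP1 was at 40.3 to 58.1 CPM in the parent line and at most 1.78 CPM elsewhere. The part of these markers in the HOX differences between lines was not tested. Hepatocyte, endothelial and stratified epithelial lists summed to at most 0.726 CPM in any library, and the fibroblast list to at most 17.5 CPM. The second RPRD1A_RPRD2_KD library stood apart in how its levels followed transcript GC content (Spearman's rho 0.418 across genes, against -0.214 to 0.0877 in the other 15 HEK293T libraries). In the 8 Flp-In libraries this rho ran from -0.491 to 0.531.

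Together the 39 HOX genes made up 1139 to 1504 CPM (median 1319) in the 16 HEK293T libraries, 1633 to 1766 CPM in the 4 parent libraries and 1833 to 1953 CPM in the 4 RPRD1B_FL line libraries. Most of this RNA came from the posterior end of the clusters: genes numbered 9 to 13 held 66.8% to 70.4% of HOX reads in HEK293T libraries, 68.8% to 71.5% in the parent line and 71.9% to 73.0% in the RPRD1B_FL line. Genes numbered 1 to 3 held 3.10% to 4.43% in HEK293T and 5.01% to 6.69% in the Flp-In libraries. The HOXB cluster was the largest source in HEK293T, with 31.8% to 42.9% of HOX reads, and held 23.8% to 29.2% in the Flp-In libraries. The HOXA cluster held 22.1% to 30% in HEK293T and 27.5% to 35.1% in the Flp-In libraries, which overlap. HOXC held 14.9% to 18.3% and 16.6% to 19.2%, and HOXD 19.5% to 25.2% and 22.2% to 26.3%, in the same order.

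**Figure D1:**
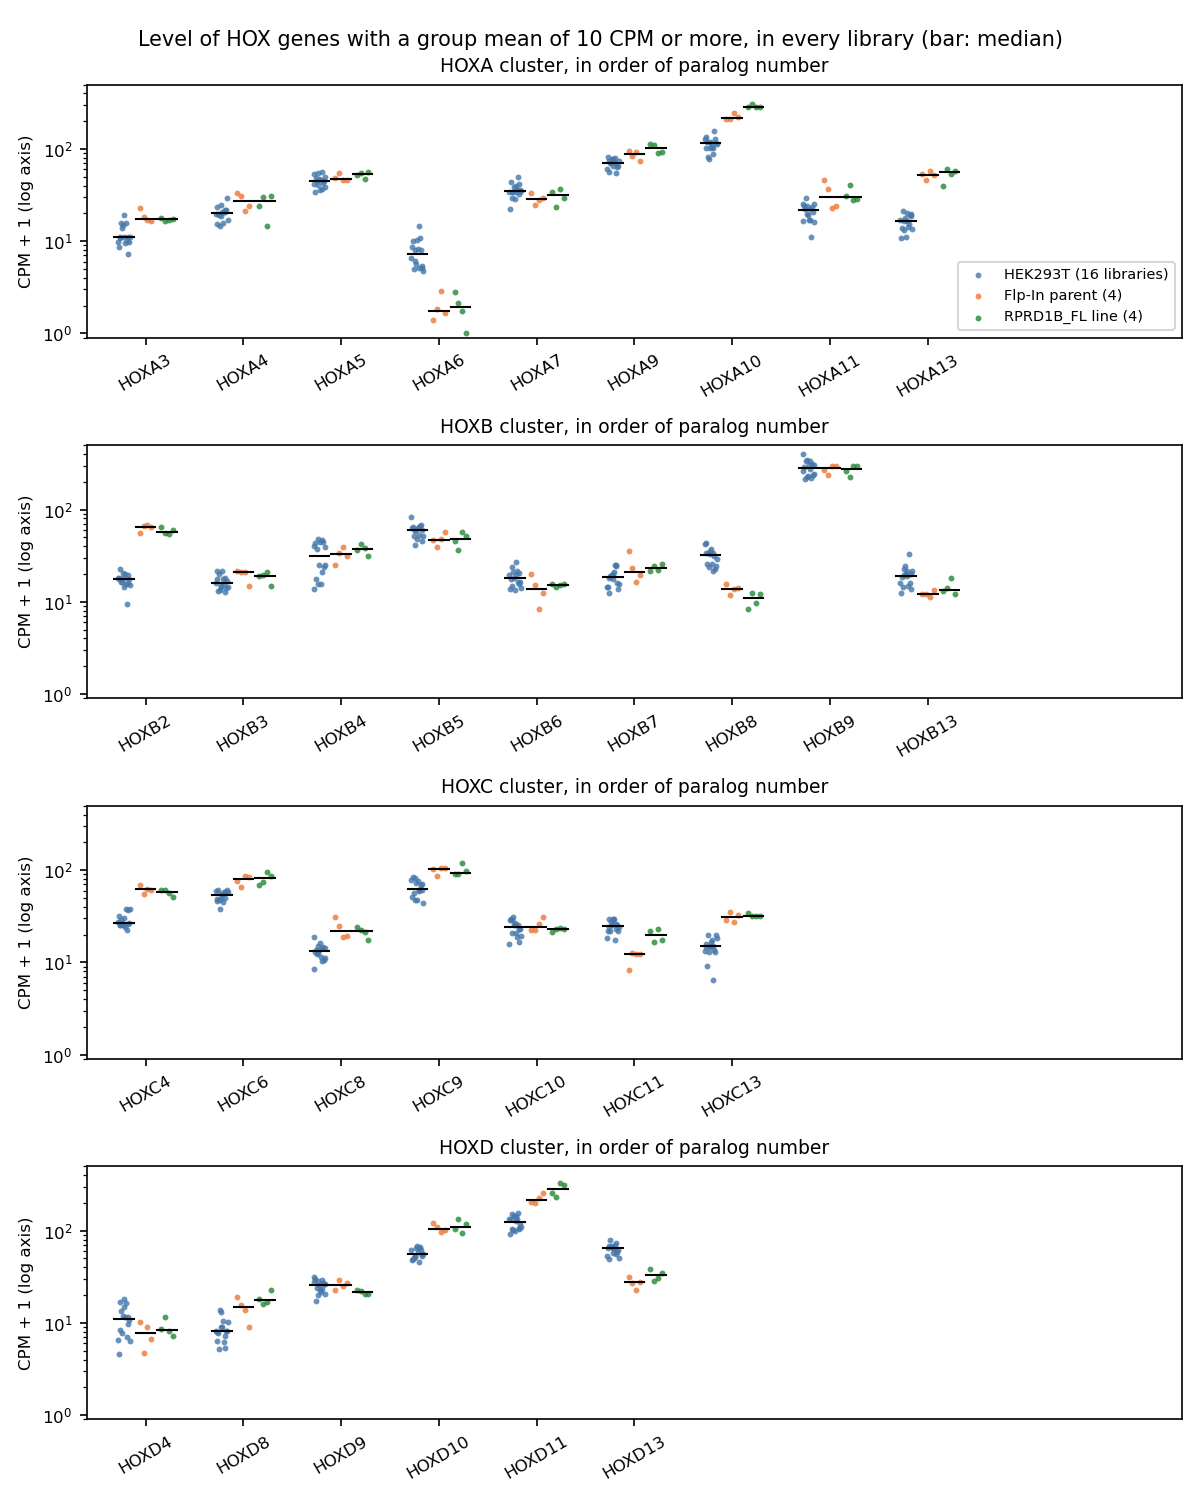
Level of the 31 HOX genes with a mean of 10 CPM or more in at least 1 group, in all 24 libraries (CPM + 1, log axis), in order of paralog number within the HOXA, HOXB, HOXC and HOXD clusters. Blue points are 16 HEK293T libraries, orange points 4 Flp-In parent libraries, green points 4 RPRD1B_FL line libraries, and bars mark medians; HOXB9, HOXA10 and HOXD11 stand highest, and HOXA6 lies lowest in the Flp-In libraries.

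Of the 39 genes, 31 reached a mean of 10 CPM in at least 1 group. The 8 below that mean everywhere were mostly anterior, among them HOXA2, HOXB1, HOXD1 and HOXD3. HOXB1 and HOXD12 had no read in any of the 24 libraries, and HOXC5 had 1 read in 1 of them. A count of 0 here means under the floor of each library, not absence.

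HOXB9, a trunk-patterning gene, was the most abundant HOX gene in HEK293T cells, with a lowest, median and highest level of 216, 281 and 403 CPM. It was at 224 to 295 CPM in the 8 Flp-In libraries, inside the HEK293T range. HOXD11, needed in the early kidney and the forearm, followed in HEK293T at 90.5, 122 and 155 CPM, and HOXA10, used in the lumbar region and the uterus, at 76.7, 115 and 156 CPM. The HEK293T ranges of HOXD11 and HOXA10 overlap almost fully, so their order is not separated by the spread. In the RPRD1B_FL line HOXA10 and HOXD11 had medians of 283 CPM each and HOXB9 277 CPM, with overlapping ranges.

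A middle tier in HEK293T was made of HOXA9, known for its part in blood stem cells (median 69.7 CPM), HOXD13, used in digits and the genital tubercle (63.5 CPM), HOXC9 (60.8 CPM), HOXB5 (58.9 CPM), HOXD10 (55.1 CPM), HOXC6 (53.0 CPM) and HOXA5 (43.9 CPM). Neighbours in that order overlapped in every case. In the Flp-In cells HOXD13 had a median of 28.6 CPM over 8 libraries and HOXD10 one of 106 CPM, so these genes changed places in the order. The remaining named genes lay between a median of 6.27 CPM (HOXA6) and 33.6 CPM (HOXA7) in HEK293T, among them HOXB8 at 30.9 CPM, HOXB4 at 30.3 CPM, HOXC4 at 25.8 CPM, HOXD9 at 24.9 CPM, HOXC11 at 23.7 CPM, HOXC10 at 23.3 CPM, HOXA11 at 20.6 CPM and HOXA4 at 19.2 CPM. HOXB7, at 17.6 CPM, HOXC13, at 14 CPM, HOXC8, at 12.2 CPM, HOXA3, at 10.1 CPM, and HOXD8, at 7.19 CPM, were lower still. HOXB13, a marker of prostate and the tail end of the body, had a median of 18.2 CPM in HEK293T and 11.6 CPM in the Flp-In libraries. HOXB6 was at 16.9 and 14.1 CPM and HOXB3 at 14.9 and 19.2 CPM in the same order, and HOXD4 at 10.1 and 7.44 CPM, all with overlapping ranges.

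Untreated parent cells (FLP) were first compared with HEK293T control siRNA cells, to describe HOX levels in these 2 groups. By edgeR's quasi-likelihood test with adjustment over all 12803 genes tested, 18 of 32 tested HOX genes were called at an adjusted p under 0.05, 13 higher and 5 lower in FLP, against 33.4% of all genes (17.4% higher and 16.1% lower). The other 7 genes (HOXA2, HOXB1, HOXC5, HOXC12, HOXD1, HOXD3 and HOXD12) were too low to test. The median log2 fold change was 0.38 over the 32 genes and -0.02 over all genes. Cell line, siRNA transfection and the set of libraries cannot be told apart in this comparison.

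The 13 genes higher in FLP came from every cluster. HOXB2, a hindbrain gene, was at 17.2 and 16.9 CPM in the control and at 54.3 and 64.8 CPM in FLP. All 8 Flp-In libraries, at 53.3 to 66.5 CPM, stood above all 16 HEK293T libraries, at 8.44 to 21.4 CPM. The difference was 1.81 on the log2 scale (SE 0.24, edgeR adjusted p = 1.85e-06). HOXA13, active in digits and the lower urogenital tract, was at 16.1 and 9.76 CPM in the control and 52.4 and 45.0 CPM in FLP. Again no Flp-In library overlapped a HEK293T one (38.6 to 60.1 against 9.76 to 20.2 CPM), and the log2 fold change was 1.93 (SE 0.29, edgeR adjusted p = 1.29e-05).

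HOXD10, a lumbosacral and limb gene, was at 60.6 and 47.0 CPM in the control and 120 and 109 CPM in FLP (log2 fold change 1.1, SE 0.19, edgeR adjusted p = 6.23e-05). HOXA10 was at 128 and 102 CPM in the control and 211 and 209 CPM in FLP (0.87, SE 0.17, edgeR adjusted p = 0.000224). HOXD11 was at 134 and 90.5 CPM in the control and 203 and 199 CPM in FLP (0.85, SE 0.21, edgeR adjusted p = 0.00251). For these 3 abundant posterior genes the 8 Flp-In libraries also stood clear of the 16 HEK293T libraries. The others higher in FLP were HOXA3, a pharyngeal arch and thymus gene (1.24), HOXA4 (0.92), HOXA11 (1.03), HOXB7 (1.08), HOXC4 (1.1), HOXC8, a thoracic gene (1.13), HOXC13, a hair and nail gene (1.26), and HOXD8 (1.39 on the log2 scale).

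The 5 genes lower in FLP were HOXA6, HOXB5, HOXB8, HOXC11 and HOXD13. HOXA6, a central gene of the HOXA cluster, had 10 and 17 reads in the control and 1 and 3 reads in FLP. Its HEK293T levels ran from 3.76 to 13.7 CPM (median 6.27) and its Flp-In levels from 0 to 1.85 CPM (median 0.811), without overlap. Summed over each group, HOXA6 was 10.4-fold higher in the control than in FLP, with a 95% exact interval of 3.61 to 40.8 for counting error only. Over all libraries it held 255 reads in HEK293T and 22 in Flp-In cells. The fitted log2 fold change was -3.25 (SE 0.71, edgeR adjusted p = 0.000968).

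HOXD13 was at 52.2 and 64.3 CPM in the control and at 30.8 and 26.1 CPM in FLP. Over all libraries it spanned 48.8 to 77.4 CPM in HEK293T and 21.5 to 37.9 CPM in Flp-In cells, again without overlap. The log2 fold change was -1.05 (SE 0.23, edgeR adjusted p = 0.000822). HOXB8, known from spinal cord and myeloid cells, was at 41.1 and 32.4 CPM in the control and at 14.4 and 10.9 CPM in FLP (-1.54, SE 0.31, edgeR adjusted p = 0.000409). HOXB5, an enteric nervous system gene, differed by -0.79 (edgeR adjusted p = 0.00968) and HOXC11 by -0.98 (edgeR adjusted p = 0.0115). Counting the 8 Flp-In against the 16 HEK293T libraries, 12 of the 32 genes did not overlap, 9 higher (HOXA10, HOXA13, HOXB2, HOXC4, HOXC6, HOXC9, HOXC13, HOXD10 and HOXD11) and 3 lower (HOXA6, HOXB8 and HOXD13), against 20.5% of all genes (11.8% higher and 8.72% lower). HOXC6 and HOXC9, which did not overlap in this count, had log2 fold changes of 0.42 (edgeR adjusted p = 0.0876) and 0.57 (edgeR adjusted p = 0.0978) in FLP against the control.

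Some of these calls rested on a control library. Without control replicate 2 the count was 12, and HOXA4, HOXA11, HOXC8, HOXC11, HOXD8 and HOXD11 lost the call. HOXA4, HOXB7 and HOXC11 lost it without FLP replicate 1, HOXA4 and HOXB5 without FLP replicate 2, and HOXB5 without control replicate 1.

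**Figure D2:**
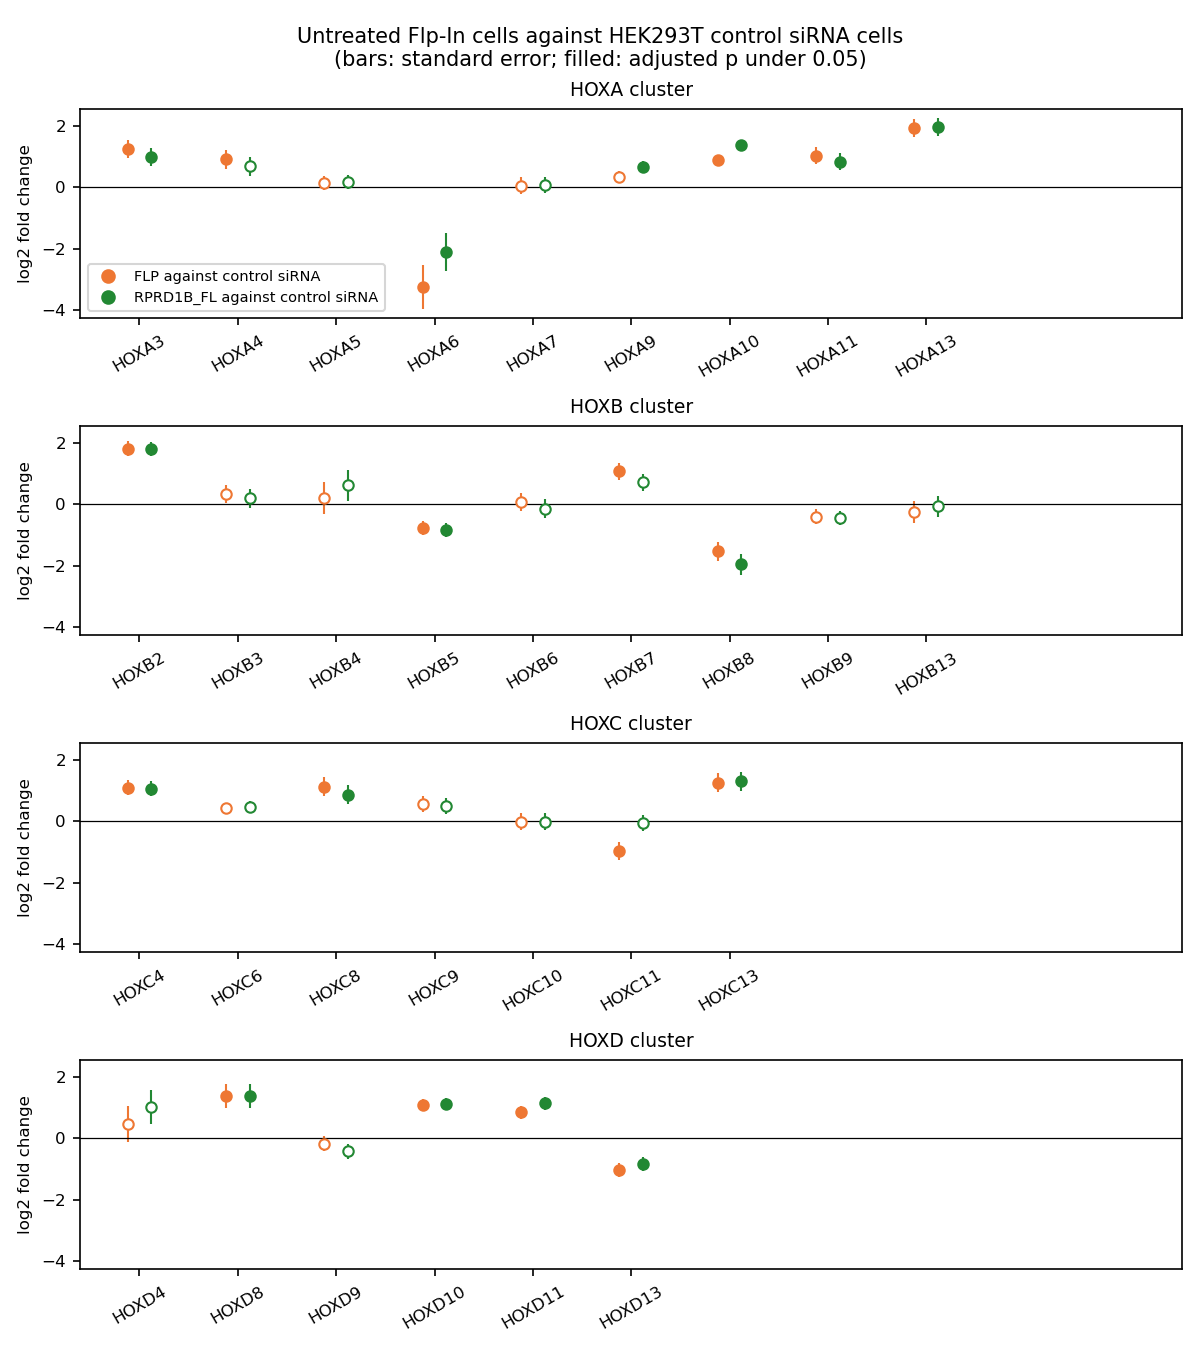
Log2 fold changes of the 31 HOX genes with a group mean of 10 CPM or more in untreated FLP (orange) and untreated RPRD1B_FL cells (green) against HEK293T control siRNA cells, by cluster and in order of paralog number, with standard errors as bars and filled points for adjusted p under 0.05. Of these genes, 18 are filled for FLP and 16 for RPRD1B_FL, with HOXA6 and HOXB8 lowest and HOXA13 and HOXB2 highest.

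Untreated RPRD1B_FL cells gave 16 called HOX genes against the same control, 12 higher and 4 lower, against 31.1% of all genes (15.5% higher and 15.6% lower). The median log2 fold change was 0.55 over the 32 genes and -0.03 over all genes. The 2 comparisons share the control samples, so their values are given side by side. HOXB2 differed by 1.81 in FLP and 1.80 in RPRD1B_FL, HOXA13 by 1.93 and 1.95, HOXD10 by 1.1 and 1.13, HOXB8 by -1.54 and -1.97, HOXD13 by -1.05 and -0.84, and HOXA6 by -3.25 and -2.12. HOXA10 differed by 0.87 in FLP and 1.36 in RPRD1B_FL, and HOXC11 by -0.98 and -0.06. HOXA9 was called in RPRD1B_FL (0.65, SE 0.20, edgeR adjusted p = 0.0124) and had 0.34 in FLP (edgeR adjusted p = 0.194). HOXA4 (edgeR adjusted p = 0.106) and HOXB7 (edgeR adjusted p = 0.0611) did not pass in RPRD1B_FL. Without control replicate 2 the count was 10, and HOXA3, HOXA6, HOXA11, HOXC8, HOXD8 and HOXD13 lost the call. HOXA6, HOXA11, HOXB5, HOXC8 and HOXD13 lost it without RPRD1B_FL replicate 2. HOXA3, HOXA9, HOXC8 and HOXD8 lost it without RPRD1B_FL replicate 1, and HOXA9 and HOXB5 without control replicate 1. HOXC8 also lost it by DESeq2 (adjusted p = 0.0670) and with a GC correction alone (edgeR adjusted p = 0.0557). HOXA11 lost it with a GC correction alone (edgeR adjusted p = 0.0638).

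By cluster, FLP was higher than the control for 5 of 10 tested HOXA genes and lower for 1, higher for 2 and lower for 2 of 9 HOXB genes, higher for 3 and lower for 1 of 7 HOXC genes, and higher for 3 and lower for 1 of 6 HOXD genes. By position it was higher for 2 of 4 tested anterior genes, for 5 of 14 central genes (with 3 lower) and for 6 of 14 posterior genes (with 2 lower). Over all genes, 17.4% were called higher and 16.1% lower in FLP. Along the chromosome, some neighbouring genes were called in opposite directions. Of 28 pairs of neighbouring tested genes, 7 had both members called in FLP, 4 in the same direction (HOXA3 with HOXA4, HOXA10 with HOXA11, HOXA11 with HOXA13, and HOXD10 with HOXD11) and 3 in opposite directions (HOXB7 with HOXB8, HOXC11 with HOXC13, and HOXD11 with HOXD13). Each of these 3 pairs holds a gene that lost its call in FLP when 1 library was left out (HOXB7, HOXC11 or HOXD11). In RPRD1B_FL 5 pairs had both members called, and 1 of them, HOXD11 with HOXD13, went in opposite directions. The share over all pairs of neighbouring genes was not computed.

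Several HOX genes share exonic bases with other annotated genes, and whether reads were counted by strand is not given in the sources used here, so reads of overlapping sense and antisense transcripts cannot be told apart. HOXA6 shares 39.3% of its exonic bases with genes on the other strand, chiefly the long noncoding RNA HOXA-AS3, but none of its last 500 exonic bases. HOXA4, called higher in FLP, shares 31% of its exonic bases with genes on its own strand and 16.3% with genes on the other strand, HOXA-AS3 among them, and 50.8% of its last 500 exonic bases are shared with the other strand. HOXA7 has all of its last 500 exonic bases on the other strand of HOXA-AS3, and HOXA7 differed by 0.05 in FLP (SE 0.27, edgeR adjusted p = 0.908). HOXA-AS3 itself was at 1.11 and 2.22 CPM in the control and 29.6 and 27.8 CPM in FLP. HOXD4 shares 80.5% of its exonic bases, and 62.2% of its last 500, with AC009336.2 on the same strand. HOXA11 shares 31.1% of its exonic bases with genes on the other strand, chiefly HOXA11-AS. HOXD10 shares 16.8% with HOXD11 on the same strand, but none of its last 500 exonic bases. HOXD11 shares 21.4% with HOXD10, and 20.8% of its last 500. HOXA13, HOXB2, HOXB8 and HOXD13 share under 5% of their exonic bases with any gene, and none of the last 500.

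The RPRD1B_FL line was then compared with its parent, to ask whether HOX transcripts differ between the lines. The level of RPRD1B and any other difference between the lines cannot be told apart in this comparison. Untreated, 0 of 31 tested HOX genes were called by edgeR's quasi-likelihood test (2 at an unadjusted p under 0.05, against 13.3% of all genes, and 0 called by DESeq2), where 1.18% of all genes were called, 0.226% higher and 0.954% lower. With tetracycline in both lines, 0 were called (3 unadjusted, against 10.3% of all genes, and 0 by DESeq2), where 1.11% of all genes were called, 0.226% higher and 0.887% lower. Averaged over the tetracycline states, which compares 4 libraries with 4, HOXC11 and HOXA10 were called higher in the RPRD1B_FL line, 2 of 31 genes against 4.08% of all genes (1.41% higher and 2.68% lower).

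HOXC11, among the kidney paralogs, was at 7.22 and 11.7 CPM in FLP, 11.4 and 11.2 CPM in FLP_TET, 21.1 and 15.6 CPM in RPRD1B_FL and 22.1 and 16.5 CPM in RPRD1B_FL_TET. All 4 RPRD1B_FL line libraries lay above all 4 parent libraries, and they overlapped the HEK293T range of 16.3 to 28.9 CPM, which the parent libraries lay below. The averaged log2 difference was 0.84 (SE 0.20, edgeR adjusted p = 0.0183). HOXA10 was at 211 and 209 CPM in FLP, 246 and 222 CPM in FLP_TET, 283 and 308 CPM in RPRD1B_FL and 283 and 281 CPM in RPRD1B_FL_TET. The lines did not overlap, and the averaged difference was 0.38 (SE 0.10, edgeR adjusted p = 0.0357).

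HOXD11 was at 203 and 199 CPM in FLP, 226 and 257 CPM in FLP_TET, 257 and 234 CPM in RPRD1B_FL and 328 and 309 CPM in RPRD1B_FL_TET. Its lines overlapped between 234 and 257 CPM, and its difference of 0.34 (SE 0.10) missed the threshold (edgeR adjusted p = 0.0659). HOXD9 was lower in all 4 RPRD1B_FL line libraries (19.4 to 21.5 CPM) than in all 4 parent libraries (22 to 28.4 CPM), with a difference of -0.31 (SE 0.16, edgeR adjusted p = 0.330). In all, 3 of 31 genes did not overlap between the lines, against 8.91% of all genes. The SE of the averaged difference ran from 0.10 to 0.32 over the 31 genes, with a median of 0.16.

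The calls of HOXC11 and HOXA10 were not stable to leaving out a library or to the model. HOXC11 lost its call without either FLP_TET library, without FLP replicate 1, RPRD1B_FL replicate 1 or RPRD1B_FL_TET replicate 1, and HOXA10 without either FLP, RPRD1B_FL or FLP_TET library. HOXC11 was not called by DESeq2 (adjusted p = 0.0723), and HOXA10 missed the threshold with the replicate number as a block (edgeR adjusted p = 0.0507). The adjusted p of HOXC11 ran from 0.00263 to 0.10 over all alternatives and that of HOXA10 from 0.0103 to 0.206.

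**Figure D3:**
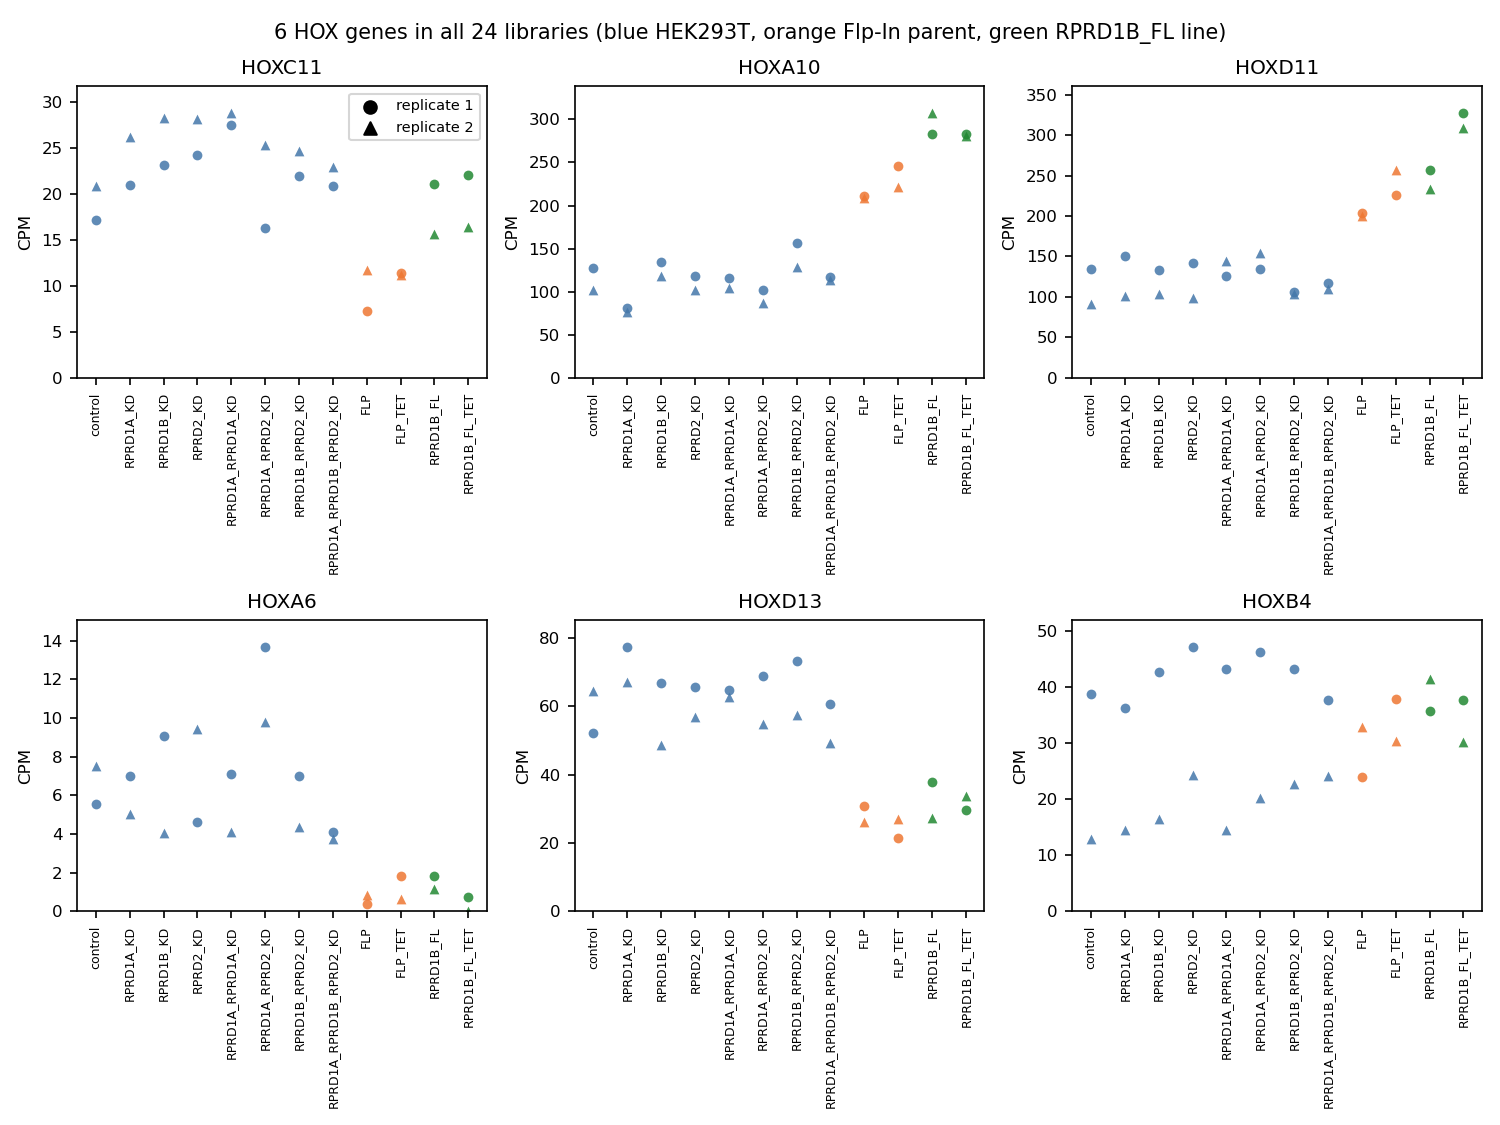
CPM of HOXC11, HOXA10, HOXD11, HOXA6, HOXD13 and HOXB4 in each of the 24 libraries, by group, with circles for replicate 1 and triangles for replicate 2 (blue HEK293T, orange Flp-In parent, green RPRD1B_FL line; linear axes from 0). The RPRD1B_FL line lies above the parent for HOXC11 and HOXA10, HOXA6 is at or below 1.85 CPM in all 8 Flp-In libraries, and HOXB4 in HEK293T spans 12.9 to 24.3 CPM in replicate 2 and 36.4 to 47.3 CPM in replicate 1.

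Tetracycline was examined next. In the parent line 0 of 31 HOX genes were called by edgeR's quasi-likelihood test (5 at an unadjusted p under 0.05, against 22.7% of all genes, and 0 by DESeq2), where 1.02% of all genes were called (0.795% lower). The nearest was HOXA11, at 44.8 and 36.1 CPM in FLP and 21.8 and 22.8 CPM in FLP_TET. These libraries did not overlap, the log2 fold change was -0.85 (SE 0.21), and the edgeR adjusted p was 0.0518. The same groups also differed in how levels followed transcript GC content (rho -0.491 and -0.287 in FLP, 0.267 and 0.400 in FLP_TET). Without a correction, tetracycline and this slope cannot be told apart in the parent line. HOXB6 (-0.79), HOXB7 (-0.74), HOXD8 (-0.64) and HOXC8 (-0.58) followed, with adjusted p between 0.0967 and 0.191. HOXA11 was called in a fit of the compared groups alone, without a filter on low counts, with a GC correction (alone or with the replicate number) and without FLP replicate 2, with adjusted p from 0.0101 to 0.629 over its alternatives, and HOXB7 was called in the first and last of these.

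In the RPRD1B_FL line, tetracycline gave 0 called HOX genes (1 unadjusted, against 6.13% of all genes, and 0 by DESeq2), where 0% of all genes were called. HOXA11 was at 30.2 and 40.0 CPM untreated and at 27 and 27.6 CPM treated. The gene with an unadjusted p under 0.05 was HOXD11, with a log2 fold change of 0.36 (SE 0.14, edgeR adjusted p = 0.788). Whether tetracycline acted unequally in the lines was tested as an interaction, which called 0 HOX genes by edgeR (2 unadjusted, HOXB7 and HOXD8, against 3.99% of all genes, and 0 by DESeq2), where 0% of all genes were called. The SE of the interaction ran from 0.20 to 0.64, and effects of that size were not detectable.

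In the knockdowns no HOX difference passed the test. By edgeR's quasi-likelihood test 0 of 32 tested HOX genes were called in any of the 7 knockdown groups, and DESeq2 also called 0. These fits held no term for replicate number. In HEK293T 20.1% of all genes were called between the replicate numbers, and these fits counted that difference as spread within groups. The 0 calls therefore do not show that HOX levels were unchanged. All genes together gave almost no calls either: 0.00845% in RPRD1A_KD, RPRD1B_KD, RPRD2_KD and RPRD1A_RPRD2_KD, and 0.0169% in the other 3 groups. At an unadjusted p under 0.05 the HOX counts were 3 in RPRD1A_RPRD2_KD (7.07% of all genes) and 3 in RPRD1A_KD (2.64%), 2 each in RPRD1A_RPRD1A_KD (3.99%) and RPRD2_KD (3.84%), 1 in RPRD1B_KD (3.46%), and 0 in RPRD1A_RPRD1B_RPRD2_KD (3.99%) and RPRD1B_RPRD2_KD (2.51%). Over the 224 tests the median absolute log2 fold change was 0.20 and the median SE 0.30 (0.18 to 0.65). Of these tests, 11 had an unadjusted p under 0.05. None of the 11 was called with the replicate number as a block on all 16 samples.

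HOXD4, which patterns the hindbrain and neck, had the largest values. It was at 5.56 and 3.55 CPM in the control, and at 16 and 7.40 CPM in RPRD1B_KD, 10.9 and 13.7 CPM in RPRD2_KD and 17.3 and 10.5 CPM in RPRD1A_RPRD1A_KD. Those libraries stood above the control, with log2 fold changes of 1.37 (SE 0.56), 1.46 (SE 0.56) and 1.61 (SE 0.56), each with an edgeR adjusted p that rounds to 1.00. Its value was positive in all 7 knockdowns, which share the same control libraries, and over the 14 knockdown libraries it ranged from 5.43 to 17.3 CPM. Leaving out the library that stands apart and adding the replicate number to the model brought it under the threshold in RPRD2_KD (edgeR adjusted p = 0.0409) and RPRD1A_RPRD1A_KD (edgeR adjusted p = 0.0237). The same fit called HOXB9 in RPRD1B_KD.

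HOXA10 was at 81.2 and 76.7 CPM in RPRD1A_KD against 128 and 102 CPM in the control (-0.54, SE 0.18, edgeR adjusted p = 1.00). With the replicate number in the model and the library that stands apart left out, it was called (-0.53, edgeR adjusted p = 0.0331). Its RPRD1A_KD libraries were the lowest of the 16, and the 6 libraries of the other groups that name RPRD1A ran from 87.1 to 116 CPM. HOXA3 was at 13.8 and 18.4 CPM in RPRD2_KD against 8.89 and 7.54 CPM in the control (0.99, SE 0.34), and at 14.9 and 12.8 CPM in RPRD1A_KD (0.75, SE 0.34). The other values with an unadjusted p under 0.05 were -0.56 for HOXB5 in RPRD1A_KD, 0.57 for HOXC11 in RPRD1A_RPRD1A_KD, and 0.64 for HOXA7, 0.82 for HOXB7 and 0.82 for HOXB13 in RPRD1A_RPRD2_KD. The smallest adjusted p of any HOX gene in a knockdown was 0.619, by edgeR. HOXB13 in that group was called without replicate 1 of it, which leaves only the library that stands apart, at 1.24 (edgeR adjusted p = 0.0291), and had 0.07 without replicate 2. In both fits the group has 1 library, which is assumed to vary like the other groups. Over the 7 knockdowns 7 genes were positive throughout (HOXA3, HOXA7, HOXA13, HOXB7, HOXB13, HOXC11 and HOXD4) and 4 negative throughout (HOXB5, HOXB8, HOXB9 and HOXD9), and all 7 comparisons share the control libraries.

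**Figure D4:**
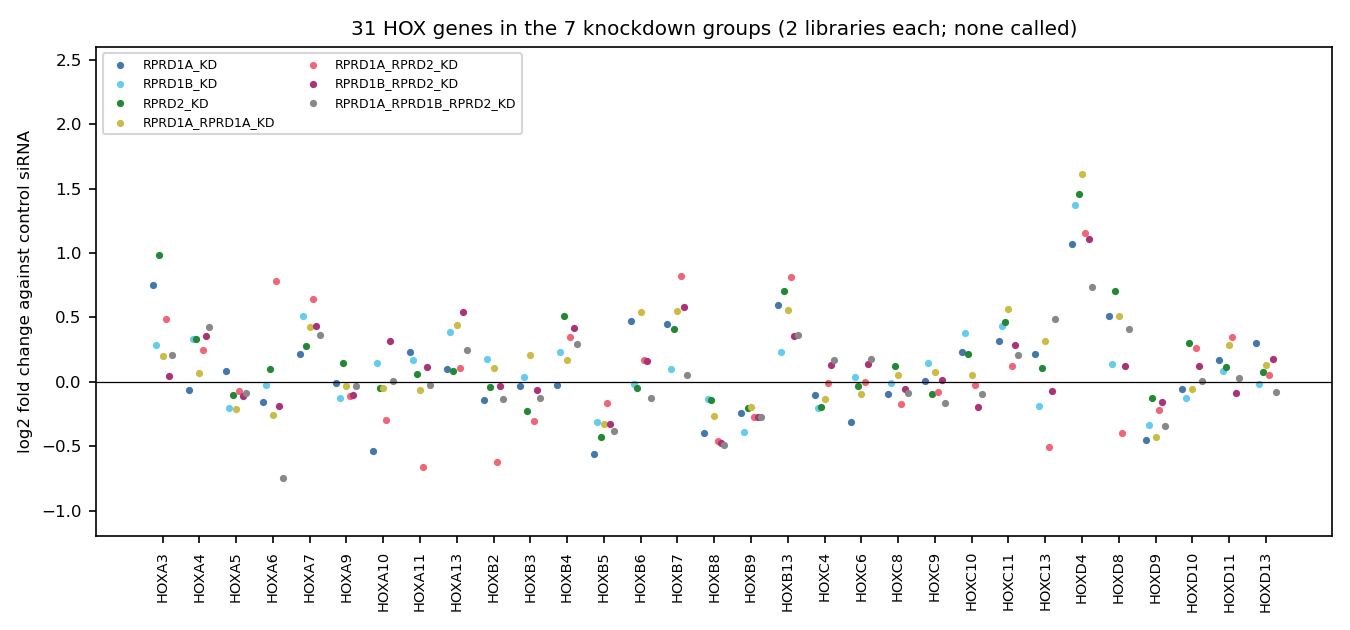
Log2 fold change against control siRNA of the 31 HOX genes with a group mean of 10 CPM or more in the 7 HEK293T knockdown groups (colours; 2 libraries a group), in order of cluster and number. No point passed the threshold; most lie between -0.5 and 0.5, and HOXD4 stands highest, at 0.74 to 1.61.

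Genes that act with or on the HOX clusters were listed by role and tested in the same fits. For FLP against the control, 33.4% of all genes were called, and the counts of the lists below are to be read against that share. Of 9 TALE cofactors (PBX, MEIS and PKNOX genes, homeodomain partners of HOX proteins), FLP was higher than the control for MEIS2 (0.67) and PBX3 (0.63), and lower for 0. Of 10 Trithorax group and demethylase genes, which keep HOX genes active, KMT2B was higher (1.77, edgeR adjusted p = 2.27e-06), and DOT1L (-1.52, adjusted p = 4.68e-07) and MEN1 (-0.90) lower. Of 19 Polycomb group genes, which keep HOX genes silent, CBX8 was higher (0.98), and CBX2 (-0.68), EZH1 (-0.64), PHC2 (-0.52), RBBP4 (-0.54) and RNF2 (-0.70) lower. Of 8 tested upstream regulators, GDF11, a trunk signal, was higher (0.47), and CDX2, a caudal factor that acts on HOX genes (-0.68), and the retinoic acid receptors RARA (-1.24) and RARG (-2.30) lower. Not all of these calls were repeated in RPRD1B_FL against the control, where 31.1% of all genes were called. There the TALE list had 0 higher and 1 lower, and the Trithorax and demethylase list 1 higher and 2 lower. The Polycomb list had 2 higher and 4 lower, and the upstream regulators 0 higher and 2 lower.

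CDX2 was also among the few related genes that separated the RPRD1B_FL line from its parent. It was at 89.7 and 86.8 CPM in FLP, 83.7 and 101 CPM in FLP_TET, 134 and 140 CPM in RPRD1B_FL, and 150 and 134 CPM in RPRD1B_FL_TET. The lines did not overlap, and the averaged log2 difference was 0.62 (SE 0.11, edgeR adjusted p = 0.00152). Of 18 tested Polycomb genes RBBP7 was lower in the RPRD1B_FL line (-0.38, edgeR adjusted p = 0.0477), and of 11 tested genes beside the clusters CBX5 was lower (-0.74, edgeR adjusted p = 0.000333), where 4.08% of all genes were called. The TALE list had 0 calls there by edgeR and 1 call for tetracycline in the parent line, MEIS3, at 22.8 and 29.5 CPM in FLP and 53.8 and 46.2 CPM in FLP_TET (0.92, SE 0.22, edgeR adjusted p = 0.0468).

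Noncoding RNAs of the clusters also differed between the kinds of 293 cell. Of 15 tested, 8 were higher and 1 lower in FLP than in the control, beside 33.4% of all genes called. The median log2 fold change was 1.15. Only 10 of these RNAs were tested in the fit of HEK293T samples alone, and 15 in that of Flp-In samples. Those that passed the filter on low counts only through Flp-In cells could hardly be called lower there. The counts and the median of this list therefore lean toward higher values in Flp-In cells. HOXA-AS3 held 7 reads in the control and 175 in FLP, 16.3-fold more after scaling to library totals (95% exact interval 7.74 to 41.1, counting error only; edgeR log2 fold change 4.02, adjusted p = 8.55e-08). HOXA10-AS (2.86), HOTTIP, beside HOXA13 (2.78), HOXB-AS3 (2.12), HOXC-AS2 (1.40), HOXA11-AS (1.01) and HOXC-AS1 (0.78) were also higher. HAGLROS, in the HOXD cluster, had no read in the control and was at least 2.39-fold higher in FLP, measured against 3 counts in each control library. HOXD-AS2 was lower (-1.98). In RPRD1B_FL against the control 7 of the 15 were called higher and 0 lower, so HOXD-AS2 was not called lower there. Of 12 tested genes beside the clusters, SKAP2, CALCOCO1, CBX5 and HNRNPA1 were higher in FLP, and PRAC2, next to HOXB13, was lower, with 29 reads in the control, none in FLP and a level at least 7.42-fold lower against 3 counts in each FLP library. The same 12 gave 3 higher and 2 lower calls in RPRD1B_FL against the control.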

How the data were processed

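RNA from 24 samples was measured by 3′ end sequencing (QuantSeq REV, per the labels' protocols), and the deposited files give raw counts of reads per gene name, 1 file a sample. The submitters' processing notes name FastQC, STAR, HTSeq and DESeq2 with the build GRCh38. Their roles, versions, gene annotation and strand setting are not given in the sources used here. The 5 closing rows of each file name no gene and were left out of library sizes. Reads in no gene were 27.4% to 36.7% of those listed in HEK293T and 15.3% to 19.5% in Flp-In libraries, ambiguous reads 1.30% to 1.83%, and reads not placed uniquely 9.56% to 14.6%.

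Groups came from the sample labels, with replicate numbers as labelled. Counts were tested with edgeR 4.0.16 (R 4.3.3): filterByExpr with a minimum count of 10 and total of 15, TMM factors, and quasi-likelihood tests. A first fit held the 16 HEK293T samples, another the 8 Flp-In samples, and a joint fit of all 24 gave the contrasts across cell lines. P-values were adjusted (Benjamini-Hochberg) across every gene of a fit, and a call was an adjusted p under 0.05. SEs were derived from the test statistic. The tests were checked on simulated data. Alternatives were DESeq2 1.42.0, other filters and fits, the replicate number as a block, a GC correction, and leaving out each sample. Genes named with values are the HOX genes with a mean of 10 CPM or more in at least 1 group or called in a comparison. Members and lists were chosen with earlier results of these data known. No 2 replicates were close enough to be a single library: their counts differed by 2.01 to 10.7 times sampling noise (chi-square over degrees of freedom). Intervals and floors cover counting error only. A few items are not reported here.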

Additional observations from a re-analysis of the deposited data

How the results depend on the processing

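Leaving out a sample changed counts of called HOX genes most across cell lines: FLP against the control gave 12 to 19 (18 with all samples), and RPRD1B_FL against the control 10 to 18 (16 with all samples). The averaged comparison of the RPRD1B_FL line with its parent gave 0 to 3, FLP_TET against FLP 0 to 2, RPRD1A_RPRD2_KD 0 to 1, and each other comparison 0. Among single alternatives, the averaged comparison gave 1 with DESeq2 and 1 with a mean count of 50 or more (HOXA10, with HOXC11 below that mean), and 1 with the replicate block (HOXC11). RPRD1B_FL against FLP gave 1 with a GC correction and 1 with that correction and the block. FLP_TET against FLP gave 1 without a filter, 1 with a GC correction, 1 with that correction and the block, and 2 in a fit of the compared groups only. In the replicate block fit that omits the second RPRD1A_RPRD2_KD library, HOXA10 in RPRD1A_KD, HOXB9 in RPRD1B_KD, and HOXD4 in RPRD2_KD and RPRD1A_RPRD1A_KD were called, 1 gene each. The cause of these changes was not tested. No HOX value that was called, or had an unadjusted p under 0.05, with all samples changed sign in an alternative. The other HOX values are not covered by this statement.

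Replicate numbers did not pair the samples throughout. Deviations of same-numbered samples correlated at -0.0115 to 0.527 in HEK293T (mean 0.336, 26 of 28 pairs over 0.1) and at -0.352 to 0.454 in Flp-In cells. The HEK293T pairs not over 0.1 were RPRD1A_RPRD2_KD with the control (-0.0115) and with RPRD2_KD (0.0479). That group holds the library that stands apart. The block gave 19 calls in each comparison across cell lines. Crossing the numbers for RPRD1B_FL against FLP, chosen after seeing the data as were the GC corrections, gave 2 calls. Depth limits HOXA6 and other genes near the floor of 3 counts. Groups of 2 set the SEs.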

Other observations

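Within HEK293T, several HOX genes separated the libraries by replicate number rather than by siRNA, a pattern examined after seeing the data. HOXB4, known for expanding blood stem cells, was at 36.4 to 47.3 CPM in the 8 libraries numbered 1 and at 12.9 to 24.3 CPM in the 8 numbered 2, without overlap. With groups and replicate number in the model, its log2 difference between numbers was -1.19 (SE 0.11, edgeR adjusted p = 2.24e-06). HOXB9 also did not overlap and differed by -0.47 (edgeR adjusted p = 5.74e-05). In all, 7 of 32 HOX genes were called lower in number 2 (HOXA4, HOXA10, HOXB4, HOXB5, HOXB9, HOXC9 and HOXD4) by edgeR, against 11% of all genes. In either direction, 20.1% of all genes were called. The numbers did not overlap for 3.41% of all genes. The labels do not say what the number stands for, and its cause was not tested.

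The library labelled RPRD1A_RPRD2_KD replicate 2 was the highest or lowest of the 16 HEK293T libraries for 9 of 32 HOX genes, against 1 to 8 (median 3) in the other libraries. The count of 8 was that of control replicate 2, and the share over all genes was not computed. The HOX count therefore does not set this library apart.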
